A study of Mus musculus with 6 samples.

Results

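The TGF-beta system was examined in mouse liver through 10 genes: the ligands Tgfb1, Tgfb2 and Tgfb3, the receptors Tgfbr1 and Tgfbr2, the latent binding proteins Ltbp1, Ltbp2 and Ltbp3, and Tgfbi and Smad7, which TGF-beta is known to induce. They were taken by symbol from a table of read counts for 54532 genes, all 10 were matched, and all 10 were among the 14758 genes with enough counts to be tested. The knockout group was 3 mice with 1 LysM-Cre allele and floxed Cd44 on both chromosomes (LysMcre/+ Cd44flox/flox), and the control group, labelled WT, was 3 littermates with the same floxed alleles and no Cre (LysM+/+ Cd44flox/flox). LysM-Cre is active in myeloid cells, so Cd44 is intact by design in hepatocytes, stellate cells and endothelium. All mice were C57BL/6J/Rj and had ethanol: 10 days on a liquid Lieber-DeCarli diet (6% vol), then 5 g per kg by gavage on day 11, with livers taken 9 hours afterwards. Livers without ethanol or with Cre alone were not analysed here, so the effects of Cre, of the altered Lyz2 allele and of Cd44 loss cannot be told apart.

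TGF-beta ligands are made as precursors that the protease furin cuts. The mature dimer stays bound to its own propeptide, which a latent binding protein can tie to fibrillin in the matrix, and integrins or thrombospondin release it. Free ligand binds the type II receptor Tgfbr2, which recruits and activates the type I receptor Tgfbr1; SMAD proteins then carry the signal to the nucleus, where one of the induced genes, Smad7, encodes an inhibitor of the receptor. In liver the pathway is best known for turning stellate cells into collagen-producing myofibroblasts.

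Levels are given as CPM, each count divided by its library size after TMM scaling (trimmed mean of M values), and changes as log2 fold changes of knockout over control. The threshold for passing was an adjusted p of 0.05 in edgeR's quasi-likelihood test over all tested genes. Library totals ran from 21521174 to 24042917 counts in knockout livers and from 18428224 to 23126828 in control livers, and 3 counts equal 0.119 to 0.148 CPM. Cd44 itself stood at 2.11, 1.92 and 3.00 CPM in knockout livers, against 32.6, 34.7 and 26.4 CPM in control livers, lower in all knockouts as the genotype labels have it. Lyz2, the gene into which LysM-Cre is inserted, stood at 41.3, 36.9 and 66.5 CPM in knockout livers, against 195, 218 and 235 CPM in control livers. The genotypes separated on the leading principal component of the 500 genes that varied most across these libraries. It took 78.5% of the variance of those genes, which were picked for varying in these same livers.

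The 3 ligand genes and Ltbp2 and Ltbp3 fell in the knockout livers, and neither receptor passed the test. Of the 10 members 5 fell and 0 rose, where 13.1% of all tested genes passed as lower and 11.9% as higher. The median log2 fold change of the members was −0.57, beside −0.01 over all tested genes. In 7 of the 10 every knockout liver was below every control liver, which held for 22.5% of all tested genes, and 0 of the 10 lay entirely above, against 21.4% of all. Without knockout liver 3, control liver 2 or control liver 3 the count of members that fell was 3, and it was 9 with library totals in place of TMM and 3 when scaled on endothelial markers. Whole liver was sequenced, so fewer cells of a type and less RNA per cell cannot be told apart in any of these values.

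**Figure D1:**
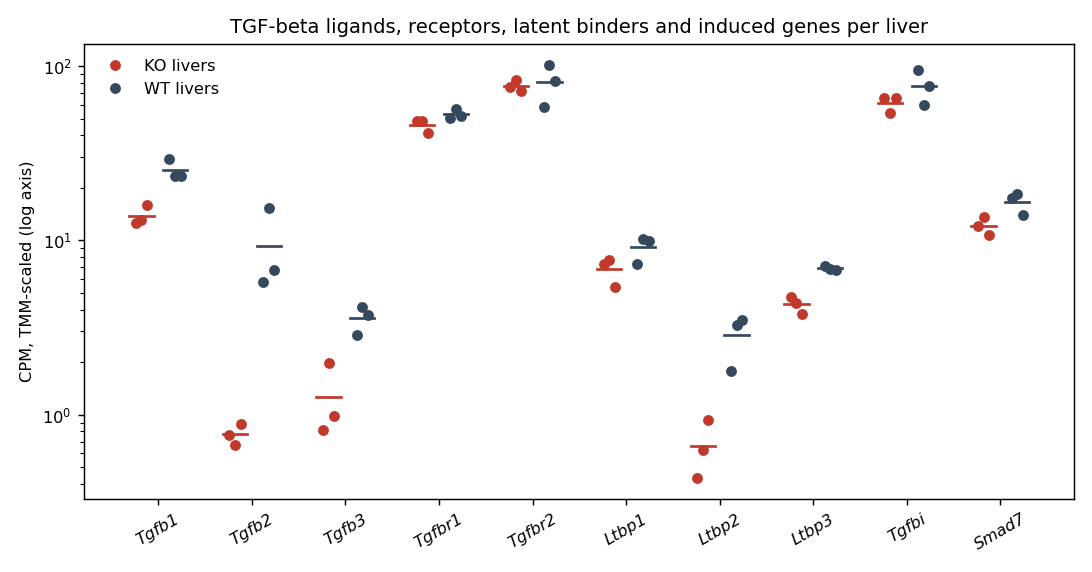
CPM of each member on a log axis, with 1 point per liver, knockout (red) to the left of control (dark) for each gene, and a line at the mean of 3 livers. The knockout points lie below all control points for Tgfb1, Tgfb2, Tgfb3, Tgfbr1, Ltbp2, Ltbp3 and Smad7, and overlap them for Tgfbr2, Ltbp1 and Tgfbi.

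**Figure D2:**
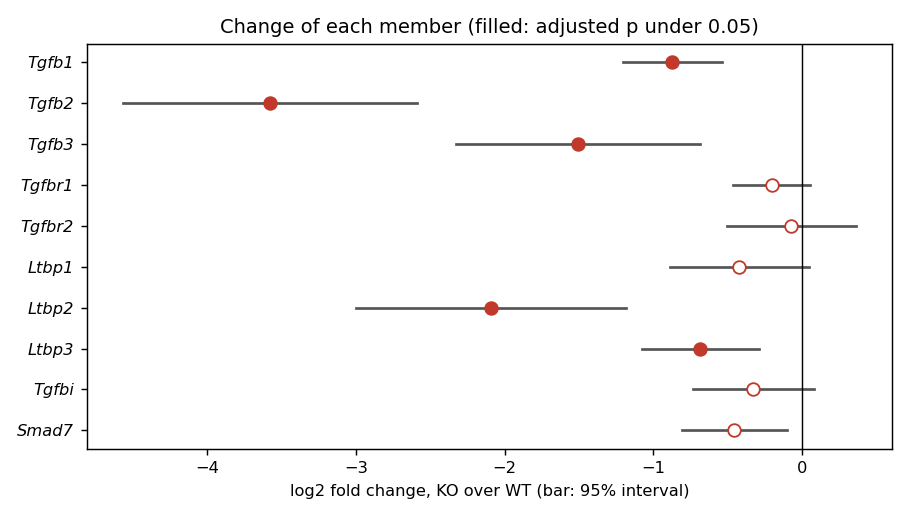
Log2 fold change of each member, knockout over control, with its 95% interval. Filled points passed the test; they run from −3.58 for Tgfb2 to −0.68 for Ltbp3, and the open point nearest to 0 is Tgfbr2 at −0.07.

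The 250 bases before the RefSeq start (GRCm38.p6) are printed for 4 members: Tgfb2 and Ltbp2, which had the largest falls, Tgfb1, the most abundant ligand, and the receptor Tgfbr2, which did not pass. Each reads 5′ to 3′ on the strand of its gene. Capitals mark motif matches, which do not overlap within these 4 windows. The TATA box was searched on the strand of the gene only, by the letters TATAAA. All the other motifs were searched on both strands. The E-box was searched by the letters CACGTG. The core of a cyclic AMP response element (CRE) was searched by the letters TGACG. The SMAD-binding CAGA box was searched by the letters CAGAC. The GC box of Sp1-like factors was searched by the letters GGGCGG. The site of AP-1 factors was searched by the letters TGANTCA. The windows are chr1:186705990-186706239 on the minus strand for Tgfb2, chr12:84876492-84876741 on the minus strand for Ltbp2, chr7:25686752-25687001 on the plus strand for Tgfb1 and chr9:116175364-116175613 on the minus strand for Tgfbr2.
Tgfb2: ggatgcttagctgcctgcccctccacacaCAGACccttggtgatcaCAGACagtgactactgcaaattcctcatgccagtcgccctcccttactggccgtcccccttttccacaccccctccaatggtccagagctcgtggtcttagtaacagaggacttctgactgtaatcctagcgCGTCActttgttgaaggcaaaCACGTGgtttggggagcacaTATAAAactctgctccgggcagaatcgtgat
Ltbp2: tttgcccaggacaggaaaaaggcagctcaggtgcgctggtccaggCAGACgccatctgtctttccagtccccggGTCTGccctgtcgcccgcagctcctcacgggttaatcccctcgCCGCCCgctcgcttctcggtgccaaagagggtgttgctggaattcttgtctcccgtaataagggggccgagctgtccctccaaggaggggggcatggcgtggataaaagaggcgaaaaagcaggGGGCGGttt
Tgfb1: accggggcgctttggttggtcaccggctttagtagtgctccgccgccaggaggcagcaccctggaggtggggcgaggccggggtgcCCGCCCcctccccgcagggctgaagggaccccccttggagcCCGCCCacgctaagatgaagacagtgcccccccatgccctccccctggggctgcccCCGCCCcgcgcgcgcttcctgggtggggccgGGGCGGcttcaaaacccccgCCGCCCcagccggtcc
Tgfbr2: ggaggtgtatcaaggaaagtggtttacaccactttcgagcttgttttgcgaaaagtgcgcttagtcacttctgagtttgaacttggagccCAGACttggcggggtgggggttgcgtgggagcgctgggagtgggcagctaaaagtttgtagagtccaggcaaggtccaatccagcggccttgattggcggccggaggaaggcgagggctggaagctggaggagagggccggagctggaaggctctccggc

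The Tgfb2 window alone among the 8 members with a window had a TATA box, which lay 31 to 26 bases before the start, and an E-box, 51 to 46 bases before it. A TATA box was found in 7.59% and an E-box in 6.02% of 32851 RefSeq windows of this length. Tgfb2 also had 1 CRE core (17.8% of all windows had one) and 2 CAGA boxes (42.2% of all). The Tgfb1 window was 75.2% G and C, beside 53.6% for Tgfb2 and a median of 52.4% over all windows, and it held 5 GC boxes (32.7% of all windows had one) and none of the other motifs. Ltbp2 had 2 CAGA and 2 GC boxes, and Tgfbr2 had 1 CAGA box. None of the 8 windows held an AP-1 site, which 6.75% of all windows had. These are matches of letters and say nothing of binding.

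Tgfb2, a ligand that mesenchymal and epithelial cells can make, had the largest change among the members. Its levels were 0.77, 0.67 and 0.89 CPM in the knockout livers, from 16, 14 and 18 reads, against 5.79, 15.4 and 6.78 CPM in the control livers, from 146, 319 and 156 reads. Control liver 2 stood more than the others above the knockouts, and the groups did not overlap. The gene was 11.9-fold lower in the knockout livers (log2 −3.58, SE 0.43, adjusted p = 0.00124), and only 47 of the 14758 tested genes had a lower log2 fold change. Without control liver 2 the log2 value was −2.99 (adjusted p = 0.00214). Tgfb2 (ENSMUSG00000039239) lies on chromosome 1 at 186622792 to 186705989, minus strand, in GRCm38.

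Tgfb1, the ligand made by macrophages, platelets and many other cells, stood at 12.5, 13.1 and 15.9 CPM in knockout livers, against 29.3, 23.5 and 23.3 CPM in control livers. All 3 knockout values lay below the lowest control. The gene fell 1.83-fold (log2 −0.87, SE 0.15, adjusted p = 0.0045). Scaled on endothelial markers, its log2 value was −0.64 and it did not pass (adjusted p = 0.103; range over 16 alternatives 4.62e-05 to 0.103). Tgfb1 (ENSMUSG00000002603) lies on chromosome 7 at 25687002 to 25705077, plus strand.

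Tgfb3, the third ligand, stood at 0.81, 1.97 and 0.98 CPM in knockout livers, against 2.86, 4.15 and 3.74 CPM in control livers. Knockout liver 2 was the highest of its group and still below every control. The fall was 2.84-fold (log2 −1.50, SE 0.36, adjusted p = 0.0181) on 17, 41 and 20 reads in knockouts and 72, 86 and 86 in controls. It did not pass without knockout liver 1 (adjusted p = 0.0629), knockout liver 3 (0.0511), control liver 2 (0.0671) or control liver 3 (0.0573), within a range of 0.00147 to 0.0671 over 16 alternatives, and the log2 value stayed between −1.98 and −1.27 with each liver left out in turn. Tgfb3 (ENSMUSG00000021253) lies on chromosome 12 at 86056745 to 86079041, minus strand.

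The make-up of the ligand transcripts within each liver was compared per length, as TPM over the merged exons of each gene. Tgfb1 made up 87.0%, 78.8% and 87.6% of the summed ligand TPM in knockout livers, against 75.9%, 54.5% and 67.0% in control livers. Tgfb2 made up 4.62%, 3.52% and 4.26% in knockout livers, against 13.1%, 31.1% and 17.0% in control livers. Tgfb3 made up 8.41%, 17.6% and 8.11% in knockout livers, against 11.0%, 14.4% and 16.0% in control livers. All knockout livers had a Tgfb1 share above, and a Tgfb2 share below, the range of the controls, while the Tgfb3 shares overlapped. The size of a share depends on the length used: over the longest transcript in place of the merged exons, Tgfb2 made up 2.84%, 2.26% and 2.61% in knockout livers, against 8.48%, 22.5% and 11.5% in control livers, again without overlap. The log2 ratio of Tgfb1 to Tgfb2 reads averaged 3.999 ± 0.12 in knockout livers and 1.57 ± 0.88 in control livers (SD, n = 3 each; exact permutation test, two-sided, p = 0.1, 0.2 adjusted over 10 ratios), where 0.1 is the smallest p that 3 livers against 3 can give. That of Tgfb2 to Tgfb3 averaged −0.55 ± 0.76 in knockout livers and 1.24 ± 0.55 in control livers with the same p-values, and that of Tgfb1 to Tgfb3, 3.45 ± 0.67 in knockout livers and 2.80 ± 0.46 in control livers, overlapped (exact p = 0.2, adjusted 0.286). Such ratios within a liver do not depend on how libraries are scaled.

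**Figure D3:**
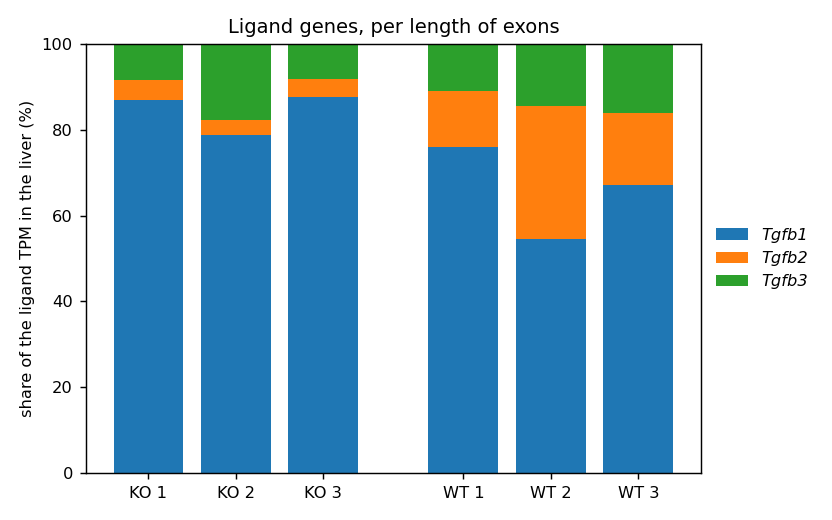
Share of each ligand gene in the summed ligand TPM of a liver, as stacked bars, for the knockout livers on the left and the control livers on the right. Tgfb2 takes 3.52% to 4.62% in the knockouts and 13.1% to 31.1% in the controls.

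The receptors showed no change that passed the test. Tgfbr2, the ligand-binding type II kinase, stood at 75.4, 83.6 and 71.8 CPM in knockout livers, against 58.6, 102 and 82.4 CPM in control livers. The controls spread on both sides of the knockouts, with control liver 1 lowest and control liver 2 highest. Its log2 fold change was −0.07 (SE 0.19, 95% interval −0.51 to 0.36, adjusted p = 0.816), and it was 0.14 without control liver 2 and 0.18 when scaled on endothelial markers. Tgfbr1, the type I kinase, stood at 48.2, 48.2 and 41.3 CPM in knockout livers, against 50.7, 56.6 and 51.4 CPM in control livers. Each knockout value was below each control, by little. The log2 value was −0.20 (SE 0.11, 95% interval −0.46 to 0.05, adjusted p = 0.224), and it passed with library totals (−0.46, adjusted p = 0.0229) and was 0.03 when scaled on endothelial markers. With TMM scaling both intervals lay above that of Tgfb1 (−1.21 to −0.54), for Tgfbr2 by little. Intervals were not computed with the other scalings. The log2 ratio of Tgfb1 to Tgfbr2 reads was −2.47 ± 0.26 in knockout livers and −1.64 ± 0.58 in control livers, without overlap (exact permutation p = 0.1, adjusted 0.2), and that of Tgfbr1 to Tgfbr2 overlapped (exact p = 0.7). Tgfbr2 (ENSMUSG00000032440) lies on chromosome 9 at 116084293 to 116175360, minus strand, and Tgfbr1 (ENSMUSG00000007613) on chromosome 4 at 47353222 to 47414931, plus strand.

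Of the latent binding proteins, Ltbp2 and Ltbp3 fell and Ltbp1 did not pass. Ltbp2, a fibrillin-binding protein that, unlike its relatives, is not known to hold latent TGF-beta, stood at 0.43, 0.62 and 0.94 CPM in knockout livers (9, 13 and 19 reads), against 1.79, 3.28 and 3.48 CPM in control livers (45, 68 and 80 reads). The groups did not overlap, and control liver 1 was the lowest control. The fall was 4.26-fold (log2 −2.09, SE 0.40, adjusted p = 0.00748), and it passed in each of the 15 alternatives in which the gene was tested. Ltbp3, which binds latent Tgfb1, stood at 4.74, 4.37 and 3.79 CPM in knockout livers, against 7.10, 6.86 and 6.78 CPM in control livers. The controls lay close together and above all knockouts. It fell 1.61-fold (log2 −0.68, SE 0.17, adjusted p = 0.0218), and did not pass without knockout liver 3 (adjusted p = 0.0541), control liver 1 (0.0652), control liver 2 (0.0692) or control liver 3 (0.0649) or when scaled on endothelial markers (0.316), the largest of 16 alternatives, of which the smallest was 0.00605.

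Ltbp1, the most widely studied carrier of latent ligand, stood at 7.33, 7.74 and 5.37 CPM in knockout livers, against 7.30, 10.2 and 9.90 CPM in control livers. Control liver 1 fell among the knockouts. The log2 value was −0.42 (SE 0.20, 95% interval −0.89 to 0.04, adjusted p = 0.168), and with library totals it was −0.68 (adjusted p = 0.0335). Of the summed TPM of the 3 binder genes, Ltbp2 made up 4.18%, 5.95% and 11.1% in knockout livers, against 12.95%, 19.0% and 20.2% in control livers, without overlap. Ltbp2 is on chromosome 12 at 84783212 to 84876532 (ENSMUSG00000002020, minus strand), Ltbp3 on chromosome 19 at 5740904 to 5758532 (ENSMUSG00000024940, plus strand) and Ltbp1 on chromosome 17 at 75005568 to 75392512 (ENSMUSG00000001870, plus strand).

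Whether reads were counted by strand is not given in the sources used here. Tgfb2, Tgfb3, Ltbp2 and Ltbp3 share exon bases with annotations on the opposite strand, and reads from such a pair cannot be told apart without strand. For Tgfb2, Tgfb3 and Ltbp2 those annotations had at most 1 count in any liver. How reads over shared bases were assigned is not given, so these low counts do not clear the genes. The level of Ltbp3 is uncertain because its reads over shared bases cannot be told apart from those of the opposite strand.

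Neither of the induced genes passed the test. Tgfbi, a secreted matrix protein that binds collagen and integrins, stood at 65.6, 53.4 and 65.6 CPM in knockout livers, against 95.1, 59.4 and 76.9 CPM in control livers. Control liver 2 lay among the knockouts and control liver 1 stood above the rest. The log2 value was −0.33 (SE 0.18, 95% interval −0.73 to 0.08, adjusted p = 0.215; −0.57 and adjusted p = 0.046 with library totals). Smad7, the inhibitor that blocks the type I receptor, stood at 12.0, 13.6 and 10.8 CPM in knockout livers, against 17.5, 18.5 and 13.9 CPM in control livers. The groups did not overlap, though knockout liver 2 and control liver 3 were close. Its log2 value was −0.45 (SE 0.15, 95% interval −0.81 to −0.10, adjusted p = 0.0612). The interval, which is not adjusted for the number of genes tested, lay below 0. Smad7 passed with library totals (adjusted p = 0.0111) and with the mouse number as a block (0.0486). Relative to Tgfb1, Tgfbi reads were higher in every knockout liver, with a log2 ratio of 2.15 ± 0.20 in knockout livers and 1.58 ± 0.21 in control livers (exact permutation p = 0.1, adjusted 0.2). The log2 ratio of Smad7 to Tgfb1 reads overlapped between the groups. It was −0.19 ± 0.32 in knockout livers and −0.61 ± 0.23 in control livers (exact permutation p = 0.2, adjusted 0.286). Tgfbi (ENSMUSG00000035493) lies on chromosome 13 at 56609523 to 56639562, plus strand.

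Ordered by TPM within the knockout livers, the members ran from Tgfbi (37.9 ± 6.09, SD, n = 3) through Tgfbr2 (21.7 ± 0.74), Tgfbr1 (16.2 ± 1.31), Tgfb1 (6.36 ± 0.97), Smad7 (6.18 ± 0.45), Ltbp1 (1.47 ± 0.24), Ltbp3 (1.10 ± 0.13), Tgfb3 (0.85 ± 0.37) and Tgfb2 (0.31 ± 0.055) to Ltbp2 (0.19 ± 0.075). The ranges of Tgfb1 and Smad7, of Ltbp1 and Ltbp3, of Ltbp1 and Tgfb3, of Ltbp3 and Tgfb3 and of Tgfb2 and Ltbp2 overlapped. In the control livers the order was Tgfbi (56.4 ± 12.7), Tgfbr2 (27.3 ± 7.72), Tgfbr1 (22.4 ± 1.88), Tgfb1 (13.9 ± 1.93), Smad7 (10.2 ± 1.72), Tgfb2 (4.48 ± 2.65), Tgfb3 (2.92 ± 0.57), Ltbp1 (2.36 ± 0.42), Ltbp3 (2.10 ± 0.087) and Ltbp2 (0.96 ± 0.31). There the ranges of Tgfbr2 and Tgfbr1, of Tgfb2 and Tgfb3, of Tgfb3 and Ltbp1 and of Ltbp1 and Ltbp3 overlapped. Tgfb2 was thus 9th of the 10 in knockout livers and 6th in control livers. Over the longest transcript the order in knockout livers and these places of Tgfb2 were as given, but in control livers Tgfb1 (22.3 TPM) came before Tgfbr1 (20.8 TPM), and Tgfb3 (2.40 TPM) after Ltbp1 (3.10 TPM) and Ltbp3 (2.73 TPM). At this length the control ranges of Tgfb1 and Tgfbr1 overlapped. That of Tgfb2 (2.57 to 6.99 TPM) overlapped those of Ltbp1, Ltbp3 and Tgfb3, so its place there was not separate from theirs. These TPM values are read within a group only, since they are not corrected for the composition of the libraries.

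Other genes that hold or release latent ligand were taken from a list of 16, of which 15 were tested. Of these 8 fell and 0 rose (median log2 −0.46), where 13.1% of all tested genes passed as lower and 11.9% as higher. The count that fell was 4 without knockout liver 1, knockout liver 3, control liver 1 or control liver 3. It was 5 without control liver 2 and 3 with endothelial scaling. Nrros, which tethers latent Tgfb1 on macrophages and microglia, stood at 5.59 ± 0.63 CPM in knockout livers and 12.5 ± 1.35 CPM in control livers (log2 −1.17, SE 0.16, adjusted p = 0.002). Thbs1, thrombospondin 1, an activator of the latent ligand, stood at 2.03 ± 1.29 CPM in knockout livers and 12.2 ± 2.60 CPM in control livers (log2 −2.59, SE 0.38, adjusted p = 0.00285). Fbn1, the fibrillin to which latent complexes are tied, fell by 1.56 on the log2 scale (5.09 ± 1.08 CPM in knockout livers and 15.1 ± 3.73 CPM in control livers, adjusted p = 0.00305). Itgav, the alpha-v integrin chain that releases the ligand, fell by 0.63 (adjusted p = 0.00842, and 0.302 with endothelial scaling). Ltbp4, the remaining latent binder, had a log2 value of −0.03, and Furin of 0.30 (neither passed).

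Of the 11 tested genes of co-receptors and signal carriers, 2 fell and 1 rose (median log2 −0.03, and 0.20 with endothelial scaling). Over all tested genes, the measure for this list and the next, 13.1% passed as lower and 11.9% as higher. Fkbp1a, the FKBP12 protein that keeps the type I receptor quiet, stood at 87.0 ± 17.0 CPM in knockout livers and 142 ± 9.72 CPM in control livers (log2 −0.71, adjusted p = 0.0127; 0.053 without knockout liver 1). Acvrl1, the type I receptor ALK1 of endothelium, had a log2 value of −0.59 (adjusted p = 0.0372; 0.0989, 0.0905, 0.119 and 0.122 without knockout liver 1, knockout liver 3, control liver 1 and control liver 3). Zfyve9, which presents SMAD proteins to the receptor, was higher, at 36.9 ± 3.87 CPM in knockout livers and 27.2 ± 1.28 CPM in control livers (log2 0.44, adjusted p = 0.0265; 0.0714, 0.0663, 0.0567, 0.0576 and 0.0745 without knockout liver 1, knockout liver 2, control liver 1, control liver 2 and control liver 3). With endothelial scaling the adjusted p was 0.291 for Fkbp1a, 0.39 for Acvrl1 and 0.0649 for Zfyve9, which with library totals had 0.268; with the mouse number as a block Acvrl1 had 0.0744. The SMAD genes themselves, Smad2 at −0.25, Smad3 at −0.03 and Smad4 at −0.13 on the log2 scale, did not pass. Of the 11 tested feedback genes and inhibitors 3 fell and 0 rose (median log2 0.05, and −0.21 with library totals); before adjustment 4 reached p under 0.05, and 1 rose by DESeq2 and 1 by limma-voom. The 3 that fell were the repressor Tgif1 (16.6 ± 1.35 CPM in knockout livers and 38.0 ± 4.85 CPM in control livers, log2 −1.19, adjusted p = 0.00102), the SMAD repressor Skil (log2 −0.71, adjusted p = 0.017; 0.0587 without control liver 1 and 0.0602 without control liver 2) and Pmepa1, a receptor-pathway inhibitor (log2 −0.74, adjusted p = 0.0445). Pmepa1 did not pass without knockout livers 1, 2 or 3 (0.138, 0.0889 and 0.052) or control livers 1 or 2 (0.142 and 0.126), with the block (0.0932) or with limma-voom (0.0539), and with endothelial scaling neither it (0.285) nor Skil (0.227) did. The list's count was 1 without control liver 1 or control liver 2.

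Of 22 genes that TGF-beta is known to induce, 21 were tested, 13 fell and 1 rose (median log2 −1.37, beside −0.01 over all tested genes). Of all tested genes 13.1% passed as lower and 11.9% as higher. Ccn2, connective tissue growth factor, stood at 5.90 ± 1.36 CPM in knockout livers and 26.2 ± 9.43 CPM in control livers (log2 −2.15, adjusted p = 0.0015). Col1a1 and Col1a2, the chains of collagen I, fell as well (log2 −1.93 with adjusted p = 0.0012, and log2 −1.304 with adjusted p = 0.00151). Nox4, an NADPH oxidase of hepatocytes and myofibroblasts, rose (9.24 ± 0.62 CPM in knockout livers and 3.81 ± 1.64 CPM in control livers, log2 1.28, adjusted p = 0.0184; 0.054 without knockout liver 1 and 0.0505 without control liver 2). Many of these genes also respond to other signals, and the list was made with earlier results of these livers known, so its direction is no independent evidence. The count that fell ran from 12 to 14 with each liver left out in turn.

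The sister branch of BMPs and activins was described in the same way. Of 33 tested genes 7 fell and 1 rose (median log2 −0.02, and 0.20 with endothelial scaling). For all tested genes the shares that passed were 13.1% lower and 11.9% higher. Fstl1, a secreted glycoprotein of mesenchyme, stood at 7.65 ± 0.54 CPM in knockout livers and 22.0 ± 4.05 CPM in control livers (log2 −1.52, adjusted p = 0.000812). Hamp, which encodes the iron hormone hepcidin and is a hepatocyte target of BMP signals, stood at 38.1, 85.9 and 54.1 CPM in knockout livers, against 1309, 485 and 410 CPM in control livers (log2 −3.63, SE 0.50, adjusted p = 0.00215). The BMP targets Id3 (log2 −1.27, adjusted p = 0.00211) and Atoh8 (log2 −0.69, adjusted p = 0.00467, and 0.193 with endothelial scaling) fell too. Id1 also fell (log2 −1.50, adjusted p = 0.0464). Id2 (log2 0.14, adjusted p = 0.768) and Smad9 (log2 0.23, adjusted p = 0.464) did not pass. Whether BMP signals account for the falls of Hamp, Id1, Id3 and Atoh8 was not tested. This list was also made with earlier results of these livers known. Among the ligand genes, Bmp6 was at −0.63 and Bmp2 at −0.22 on the log2 scale without passing, and Inhba, the activin A chain, was higher at 15.3 ± 5.15 CPM in knockout livers and 9.02 ± 0.80 CPM in control livers (log2 0.76, adjusted p = 0.047). Inhba did not pass without any 1 of knockout livers 1 and 2 and control livers 1, 2 and 3 (adjusted p 0.0888 to 0.12), nor with limma-voom (0.0656) or library totals (0.117), and without knockout liver 3 the count that rose was 3.

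**Figure D4:**
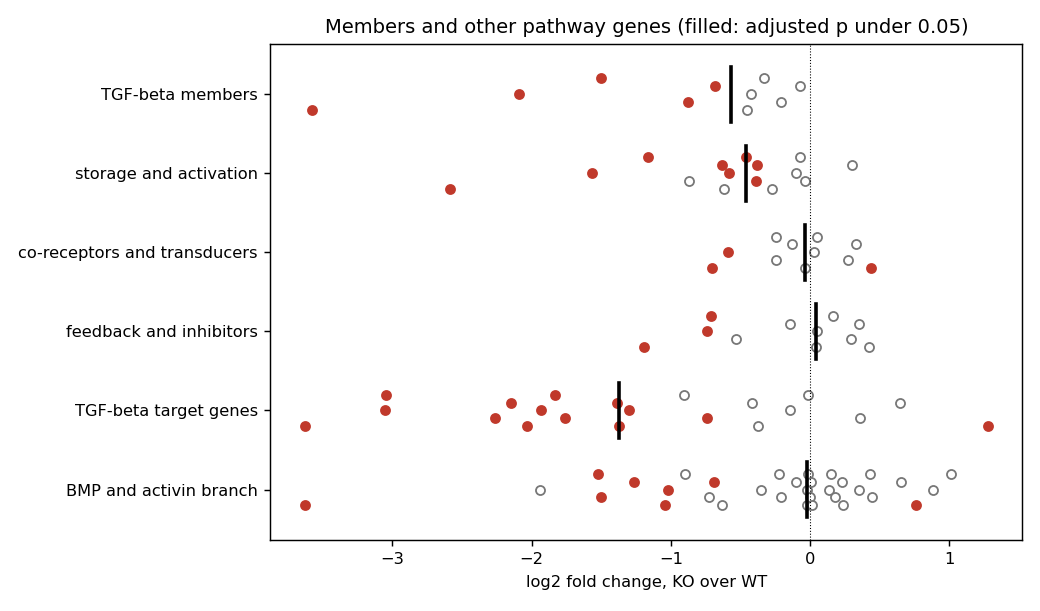
Log2 fold change, knockout over control, of each tested member and of each tested gene of 5 pathway lists, with 1 point per gene, filled where it passed, and a bar at the list's median. The medians are −0.57 for the members, −0.46 for storage and activation, −0.03 for co-receptors and transducers, 0.05 for feedback and inhibitors, −1.37 for target genes and −0.02 for the BMP and activin branch.

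Markers of the liver's cell types were measured in the same libraries. Beside the counts of every marker list, 13.1% of all tested genes passed as lower and 11.9% as higher. Of 12 shared myeloid and monocyte markers 11 fell and 0 rose, with summed levels of 124 to 234 CPM in knockout livers and 378 to 465 CPM in control livers; the fractalkine receptor Cx3cr1 (log2 −2.74) and the leukocyte tetraspanin Cd53 (log2 −1.51) led by p. Of 9 Kupffer cell markers 8 fell (239.6 to 519 CPM summed in knockout livers, 798 to 862 CPM in control livers), 4 without knockout liver 1, control liver 1 or control liver 2, 5 without control liver 3 and 4 with endothelial scaling; the scavenger receptor Marco was at −1.95. Of 5 tested neutrophil markers 4 fell (3.07 to 7.48 CPM summed in knockout livers, 13.8 to 27.7 CPM in control livers), and 2 did without knockout liver 1 or control liver 1, and 2 with the mouse number as a block, where Mmp8 and S100a9 had an adjusted p of 0.0567 each. The ligands and these myeloid markers were lower in the same livers, and the part of the markers' cells in the ligands' fall was not tested.

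Mesenchymal markers differed by kind. Of 10 stellate cell markers Pdgfrb (log2 −0.81) and Des (−0.67) fell and Ecm1 rose (0.68), and the median was −0.18. The log2 value was negative for 7 of the 10. The summed level was 473 to 522 CPM in knockout livers and 369 to 456 CPM in control livers. Ecm1 gave much of that sum, at 212, 247 and 211 CPM in knockout livers, against 162, 111 and 145 CPM in control livers. The higher sum therefore does not stand for most of the markers. Of the list 1 fell without control liver 2 or control liver 3, and 0 fell with endothelial scaling. Of 6 tested portal fibroblast markers Eln (log2 −1.25), Cd34 (−1.36) and Fbln2 (−1.15) fell, with 15.3 to 18.7 CPM summed in knockout livers and 26.3 to 39.1 CPM in control livers; 2 fell without knockout liver 1, knockout liver 3, control liver 2 or control liver 3. The fall of Tgfb2 was larger than that of any tested marker of these lists, and their part in it was not tested.

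Of 11 endothelial markers 0 passed by edgeR (220.1 to 309.9 CPM summed in knockout livers, 260.3 to 314 CPM in control livers), 2 reached p under 0.05 before adjustment, DESeq2 and limma-voom called 1 each, 2 fell without knockout liver 2, 2 with the mouse number as a block (Lyve1, adjusted p = 0.0161, and Cdh5, 0.0463) and 3 with library totals. The smallest p belonged to Lyve1 (log2 −1.08, adjusted p = 0.0609; 0.00109 without knockout liver 2). Of 6 tested cholangiocyte markers 0 passed by edgeR, 0 by DESeq2 and 0 by limma-voom, though 1 reached p under 0.05 before adjustment (51.4 to 53.9 CPM summed in knockout livers, 58.2 to 61.5 CPM in control livers). Without knockout liver 2 Sox9 fell (adjusted p = 0.00996), and with library totals Krt19 did (0.0304). Platelets store much Tgfb1, but only 2 of 7 platelet and megakaryocyte markers had enough counts; of these Pf4 fell (log2 −2.00, adjusted p = 0.0342, and not without knockout liver 1 or control liver 1, 2 or 3), and the 7 summed to 4.85 to 6.99 CPM in knockout livers and 7.49 to 11.6 CPM in control livers, with Gp1bb at 0 counts throughout. Of 4 tested T and NK cell markers Ccl5 fell (log2 −1.89; 4.42 to 9.60 CPM summed in knockout livers, 9.66 to 13.5 CPM in control livers). Of 10 hepatocyte markers 4 rose and 0 fell (median log2 0.59): Ttr, Asgr1, Serpina1c and Cps1. The hepatocyte count was 2 without control liver 1. These markers fit the labelled tissue and summed to 97250 to 130944 CPM in knockout livers and 71030 to 86161 CPM in control livers.

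**Figure D5:**
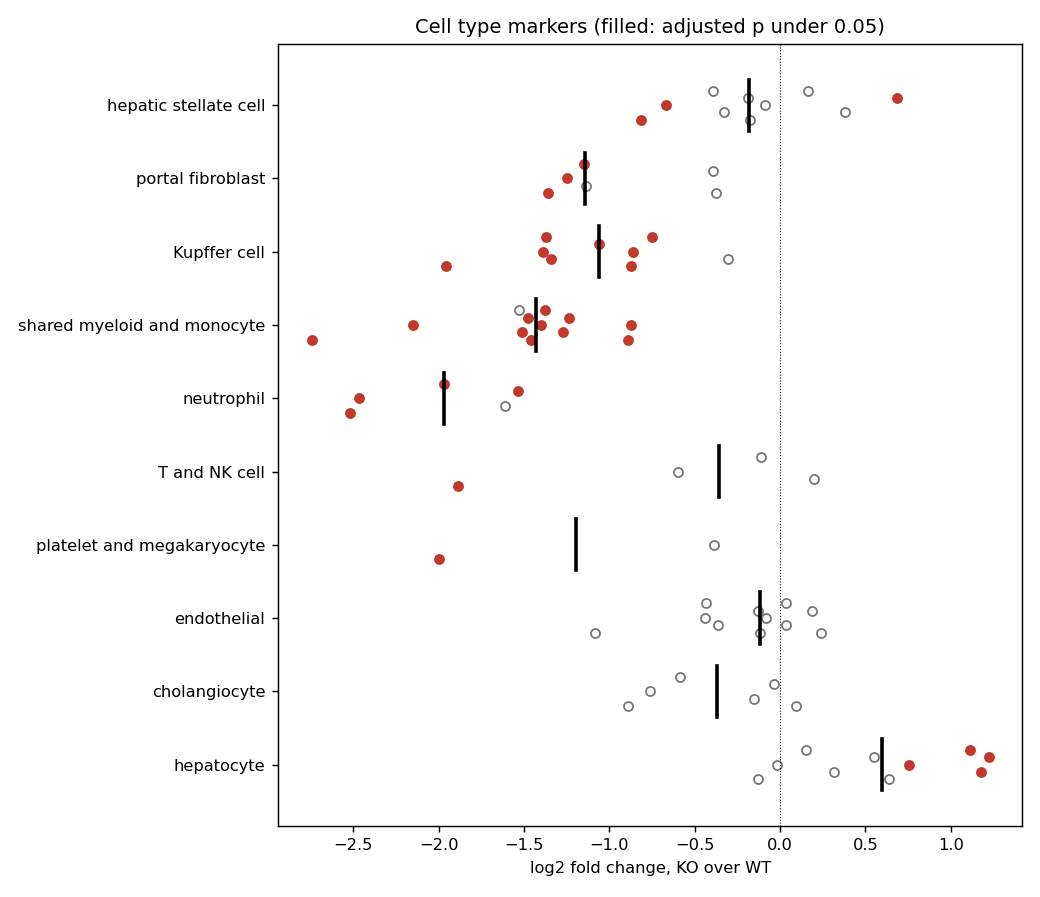
Log2 fold change, knockout over control, of each tested cell type marker, with 1 point per gene, filled where it passed, and a bar at each list's median. The medians are −1.43 for shared myeloid and monocyte markers, −1.06 for Kupffer cell, −0.18 for stellate cell, −0.12 for endothelial and 0.59 for hepatocyte markers.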

How the data were processed

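The deposited table held raw read counts per Ensembl gene, 1 column per mouse, and every column was used; the submitters' processing notes name, without a role, the build GRCm38.p6, featureCounts 1.5.0-p3, HISAT2 2.0.5 and StringTie 1.3.3b. Of 54532 genes, 54495 matched GENCODE M21 (GRCm38) for symbols, coordinates and exon lengths. From the counts, genes were filtered with filterByExpr, scaled by TMM and tested with edgeR 4.0.16 (glmQLFit and glmQLFTest, R 4.3.3) without covariates, with Benjamini-Hochberg adjustment over 14758 genes. SE is the log2 fold change divided by the square root of F, and 95% intervals use the test's degrees of freedom. TPM was computed from counts and merged exons, with the longest transcript as an alternative. Ratios used a prior count of 2 and exact permutation tests (scipy 1.17.1). The steps were tested on simulated counts. Libraries of a group differed beyond sampling noise (chi-square per degree of freedom at least 24.5); the labels number them as mice.

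The members, the 5 pathway lists, the 10 marker lists and the tests were chosen with earlier results of these data known. The named genes were all members, Cd44 and Lyz2, and up to 4 genes per list that passed, by smallest p, or 2 where none passed; some are given by count only, and other list genes named were chosen after their values were seen. Alternatives were DESeq2 1.42.0, limma-voom 3.58.1, 4 other scalings (RLE, library totals, upper quartile, endothelial markers), 2 other filters, the 20 most abundant genes left out, a block for the mouse number, 2 other thresholds and leaving out each liver. Promoter letters come from RefSeq (GRCm38.p6), for 8 of the 10 members; proteins were not used here. Of the genes the rule names, 1 is not reported here.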

Additional observations from a re-analysis of the deposited data

How the results depend on the processing

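The alternatives included 2 other thresholds, which left every log2 value as it was, so there only the side of the threshold could change. Of 179 values of the members' log2 fold changes under alternatives, 158 kept their direction and their side of the threshold. A further 12 no longer passed and 6 newly passed. The other 3 turned round, none of them past the threshold: Tgfbr1 at 0.030 and Tgfbr2 at 0.18 with endothelial scaling, and Tgfbr2 at 0.14 without control liver 2 (−0.24 to 0.14 with each liver left out). The log2 ratio of Tgfbr1 to Tgfbr2 (−0.17) was between −0.30 and 0.017 with each liver left out in turn, above 0 only without control liver 1, and the other 9 ratios kept their direction. Scaling moved the median of all genes to −0.26 with library totals (904 genes higher and 3693 lower) and to 0.22 with endothelial markers (1742 higher and 930 lower), beside −0.01 (1751 higher and 1933 lower). With these scalings 9 and 3 members fell in place of 5, and 3 fell at an adjusted p under 0.01. The causes were not tested.

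The number of genes passing, 3684, was 1515 at an adjusted p under 0.01 and 2275 to 3413 with each liver left out in turn. With each liver left out, 3 to 5 members fell, 4 to 8 storage genes fell, 0 to 2 carriers fell and 0 to 1 rose, 1 to 3 feedback genes fell and 0 to 1 rose, 0 to 1 target genes rose and 0 to 3 genes of the BMP and activin branch rose. At 0.01 the same counts were 4 storage genes, 0 and 0 carriers, 1 feedback gene that fell, and 0 target and 0 BMP genes that rose; at 0.1, 2 carriers, 1 feedback gene and 3 BMP genes rose. With endothelial scaling 3 storage genes, 0 carriers and 1 feedback gene fell, and 0 carriers and 3 BMP genes rose. With library totals 0 carriers and 0 BMP genes rose. In the feedback list 1 gene rose with DESeq2, limma-voom and RLE. In the BMP branch 2 rose with DESeq2, 0 with the upper quartile, 4 with no filter and 0 with at least 50 counts in 3 libraries.

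Mice of the 2 groups share the numbers 1 to 3 in their titles, while their library names carry other numbers. By library name, mice titled 2 and 3 have the same number in both groups, and mice titled 1 do not. The numbers are not stated to pair mice, so they were not taken as pairs. Livers with the same title number did not deviate together (correlations −0.03, 0.04 and −0.02). The block used the title numbers. With the mouse number as a replicate block 3086 genes passed, 6 members fell (Smad7 in addition), 1 carrier fell and 2 BMP genes rose; of the markers, 2 neutrophil genes fell in place of 4 and 2 endothelial genes in place of 0. Over the longest transcript 8 of 20 group levels per length moved by more than 1 SD, Tgfb1 to 10.3 TPM in knockout livers and 22.3 TPM in control livers. Tgfb2, Tgfb3 and Ltbp2 rest on under 50 reads in each knockout liver, which limits the precision of their folds. Ltbp2 gave no value under the stricter filter.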
